A study of Mus musculus with 4 samples.

Results

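Hedgehog pathway genes were read in single cells of the Atoh1 lineage, sorted by tdTomato from mouse cerebellum at E14.5. The group was a fixed list of 9 genes, Gli1, Gli2, Gli3, Ptch1, Smo, Boc, Cdon, Gas1 and Mycn, and all 9 were found among the 32285 genes of the files. Controls carried Atoh1-Cre/+ and R26LSL-tdT/+, a Cre-dependent tdTomato reporter. The En1/2 conditional knockouts (CKO) carried the same 2 alleles and also En1lox/lox and En2lox/lox, so both groups express Cre in the lineage and only the second carries the floxed Engrailed alleles. Each group had 2 libraries, each made from pooled animals whose number and sex the labels do not give, so a library is the replicate. P-values between genotypes rest on the spread between libraries of a group. Those between populations of cells in the same library rest on how alike the differences within libraries were.

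Sonic hedgehog is a secreted ligand. It binds the receptor Ptch1 together with the co-receptors Boc, Cdon and Gas1, which releases Smo from inhibition by Ptch1, and Smo then acts through the primary cilium on the transcription factors Gli1, Gli2 and Gli3. Gli2 is mainly an activator and Gli3 mainly a repressor, while Gli1 and Ptch1 are themselves target genes whose RNA is used as a readout of pathway activity. In the cerebellum the pathway is known as the main mitogen of granule cell precursors, the Pax6 and Atoh1 expressing cells of the rhombic lip and external granule layer, where Mycn is a target that promotes division. Purkinje cells are the known source of the ligand there, and the division it drives is best known from the time around birth.

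Cells were placed in populations by UMIs (unique molecular identifiers, 1 per captured RNA molecule) of genes outside the list. Cells with more Pax6 than Meis2 UMIs were called cycling when Mki67, Top2a, Cenpf, Ube2c, Cdk1 and Birc5 had at least 2 UMIs together, and non-cycling otherwise. Cells with more Meis2 than Pax6 UMIs formed another population. The cycling cells numbered 646 and 309 in control replicates 1 and 2 and 648 and 1266 in CKO replicates 1 and 2. The non-cycling cells numbered 1155, 652, 560 and 1712 in that order, and the Meis2 > Pax6 cells 603, 2322, 573 and 372. Non-cycling cells with at least 2 UMIs of 10 S phase genes held 17649401 of the 23857232 UMIs of the non-cycling population. Non-cycling thus names the rule and does not mean out of the cell cycle. The 10 granule lineage markers together stood at 3837 to 4386 CPM (the UMIs of a gene or list per 1000000 UMIs of that population in that library) in non-cycling cells and at 2089 to 3419 in Meis2 > Pax6 cells. The 9 markers of excitatory cerebellar nuclei neurons stood at 253 to 729 CPM and at 2607 to 3285 CPM in the same 2 populations. The granule list includes Pax6 and the nuclei list Meis2. These genes define the populations, so part of both differences was fixed in advance. The Meis2 > Pax6 population carried markers of both lists, and it is called by its rule.

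The libraries held 14998150 to 33709450 UMIs, with 2007 to 3931 cells kept. The median kept cell had 2734 and 2122 UMIs in control replicates 1 and 2 but 5352 and 5544 in CKO replicates 1 and 2, and no label gives a batch, so genotype and preparation cannot be told apart. Pairs of libraries shared 1 to 6 barcodes among kept cells. En2 had 2028 and 1775 UMIs in control and 622 and 631 in CKO replicates. Its log2 ratio was −2.58, −2.48 and −2.24 in cycling, non-cycling and Meis2 > Pax6 cells, which was called in each (adjusted p 0.00521, 0.00224 and 0.0177). Here and below, called means a Benjamini-Hochberg adjusted p under 0.05 over all genes tested, by edgeR's quasi-likelihood test on UMIs summed per library. En1 did not pass in any of them (log2 ratio −0.39, −0.04 and 0.12), and the files do not place its 3′ UMIs within the gene. Control replicate 2 stood apart: its progenitor and glia markers (8 genes) were the lowest of the 4 libraries in each population (227, 109 and 82.2 CPM). Its erythroid markers (5 genes) were at 614 CPM in cycling and 2456 CPM in Meis2 > Pax6 cells. Erythroid markers were also at 1262 CPM in non-cycling cells of CKO replicate 1, with the other values of the 3 populations between 2.34 and 377 CPM. The part of these differences in the results below was not tested, except where a value without such cells or without a library is given.

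Promoters of 3 members are shown because their genes differed between the populations in unlike ways: Gli2 and Smo were higher in cycling cells, Ptch1 lower. Each line gives the 250 bases before the RefSeq start (GRCm38.p6), 5′ to 3′ on the gene's strand. These windows are chr1:119053620-119053869 (minus strand) for Gli2, chr6:29735247-29735496 (plus strand) for Smo and chr13:63565736-63565985 (minus strand) for Ptch1. None overlapped an annotated exon, whereas those of Gli3, Cdon, Gas1 and Mycn did. The Gli2 and Smo windows lay outside the annotated gene. That of Ptch1 lay inside it (63508328 to 63573598), so it precedes an internal start. Capitals mark a GC box (GGGCGG or its reverse complement) and, in Ptch1 alone, an E2F motif (TTCCCGC).
Gli2: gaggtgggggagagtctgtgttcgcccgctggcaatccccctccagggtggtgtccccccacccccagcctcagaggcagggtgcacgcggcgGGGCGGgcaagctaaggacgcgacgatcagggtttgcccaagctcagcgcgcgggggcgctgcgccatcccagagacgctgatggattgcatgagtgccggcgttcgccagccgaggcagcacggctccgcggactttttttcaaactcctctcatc
Smo: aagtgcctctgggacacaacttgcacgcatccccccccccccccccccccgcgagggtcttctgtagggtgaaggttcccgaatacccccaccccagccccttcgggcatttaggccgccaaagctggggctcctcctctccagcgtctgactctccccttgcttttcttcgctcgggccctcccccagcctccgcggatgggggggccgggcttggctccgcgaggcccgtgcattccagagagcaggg
Ptch1: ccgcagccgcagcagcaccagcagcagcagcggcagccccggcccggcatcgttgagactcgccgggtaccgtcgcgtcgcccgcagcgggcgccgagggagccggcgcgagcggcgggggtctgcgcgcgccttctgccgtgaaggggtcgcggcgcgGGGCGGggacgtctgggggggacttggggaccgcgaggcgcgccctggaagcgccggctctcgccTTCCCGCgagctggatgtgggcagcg
RefSeq windows were given for 7 of the 9 members. The GC box was in 5 of the 7 and in 32.7% of the 32851 promoter windows of the same length. The E2F motif was in 1 of the 7 and in 3.82% of all windows. These 2 motifs were searched only after 3 others had been found in 0 of the 7: the GLI motif GACCACCCA (0.225% of all windows), its core CCACCCA (8.11%, which includes windows with the longer motif) and the E-box CAGCTG (13.0%), all on both strands. A match is a description of the letters in the window, and the absence of one says nothing of the factor.

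Among Pax6 > Meis2 cells, cycling cells carried more Gli2, Gli3, Smo, Boc and Gas1 RNA and less Ptch1 RNA than non-cycling cells of the same library, with the library as a block in the fit. Of the 8 members tested, 5 were called higher and 1 lower, and Cdon and Mycn did not pass. The background is broad: 26.3% of the 12346 genes tested were called higher and 26.2% lower. Gli1 had too few UMIs for the low-count filter in this and every other comparison. Depth moved with the cycling call, since cells with more UMIs more often reach its minimum. Median UMIs per cell were 5042, 2819, 17463 and 12998 in cycling cells of control replicates 1 and 2 and CKO replicates 1 and 2. In non-cycling cells, in that order, they were 2734, 2109.5, 4415 and 4059. The part of depth in these differences was not tested, except where a value from thinned cells is given below.

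**Figure D1:**
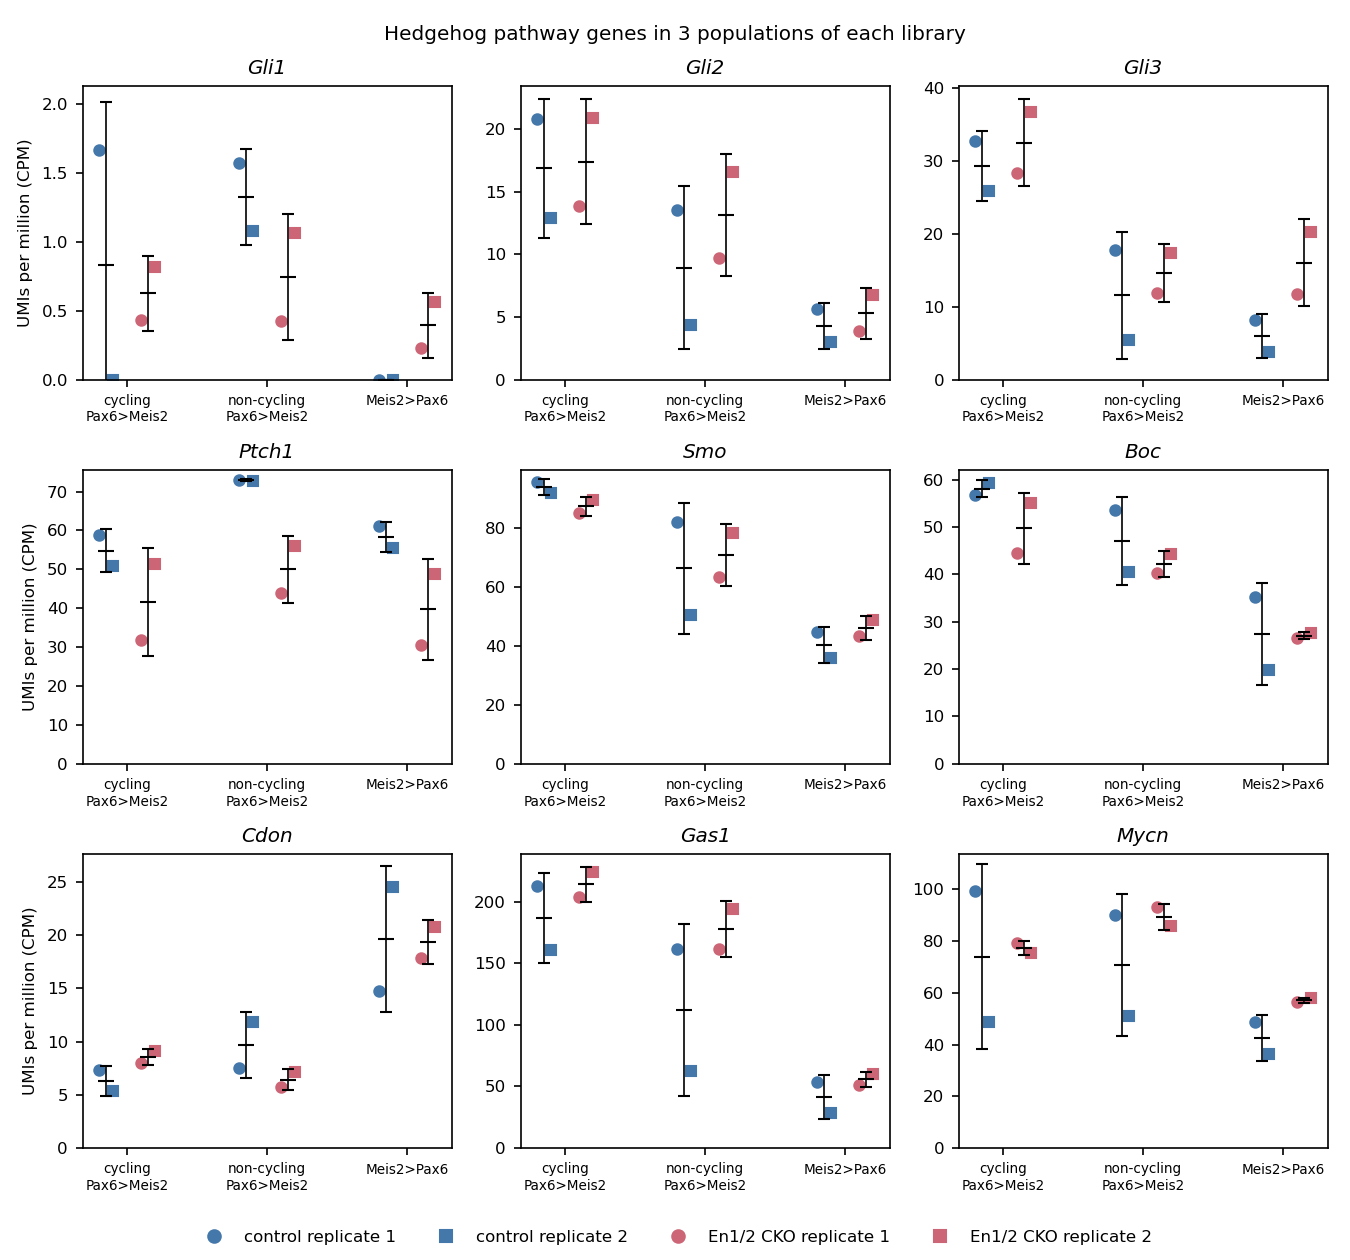
CPM (linear axis from 0) of the 9 members in the 3 populations, 1 point per library, with the mean and SD of the 2 libraries of a group as bars. Ptch1 is higher in non-cycling than in cycling cells of each library, Gli3 the reverse, and Cdon is highest in Meis2 > Pax6 cells in all 4 libraries.

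The receptor Ptch1 (ENSMUSG00000021466; GRCm38 chromosome 13, 63508328 to 63573598, minus strand) stood at 58.7 and 50.9 CPM in the cycling cells of the controls and at 31.7 and 51.4 CPM in those of the CKO replicates. Non-cycling cells, listed likewise, had 73.1, 72.8, 43.9 and 56.1 CPM. Ptch1 was thus lower in cycling cells in 4 of 4 libraries, by 0.23 on the log2 scale (SE 0.08, adjusted p 0.0126). This call was lost with DESeq2 (−0.25, adjusted p 0.0624), without CKO replicate 1 (−0.19), in intact cells, those of 4000 UMIs or more and no more than 5% mitochondrial UMIs (−0.12), without cells that carry progenitor and glia markers (−0.12) and with every cell thinned to 1000 UMIs (−0.03). It was −0.55 and called (adjusted p 9.96e-05) when S phase genes also defined cycling. After thinning, here and below, populations were called anew on the thinned counts. This left 235 and 147 cycling cells in control and 174 and 395 in CKO replicates, so thinned values do not compare the same cells.

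Smo (ENSMUSG00000001761; chromosome 6, 29735503 to 29761365, plus strand), the membrane protein that passes the signal on, stood at 95.8, 92.0, 85.2 and 89.7 CPM in cycling cells of control replicates 1 and 2 and CKO replicates 1 and 2. In non-cycling cells it stood at 82.2, 50.7, 63.3 and 78.3 CPM. All 4 cycling values lay above all 4 non-cycling values. The log2 ratio was 0.40 (SE 0.07, adjusted p 5.7e-05).

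Of the transcription factors, Gli3 (ENSMUSG00000021318; chromosome 13, 15463235 to 15730026, plus strand) had the largest difference of the 8 members. It stood at 32.6, 25.8, 28.3 and 36.7 CPM in cycling and at 17.7, 5.39, 11.8 and 17.4 CPM in non-cycling cells, and these ranges did not overlap. Its log2 ratio of 1.20 (SE 0.11, adjusted p 7.95e-09) lay between 0.99 and 1.52 under the alternatives in which Gli3 passed the filter. Gli2 (ENSMUSG00000048402; chromosome 1, 118834132 to 119053619, minus strand) stood at 20.8, 12.9, 13.9 and 20.9 CPM in cycling cells against 13.6, 4.31, 9.71 and 16.6 CPM. It was higher in cycling cells of each library, at a log2 ratio of 0.57 (SE 0.12, adjusted p 0.000591), although the ranges over libraries overlapped. Gli1 (ENSMUSG00000025407; chromosome 10, 127329882 to 127341974, minus strand) had 11, 0, 5 and 14 UMIs in all cycling cells of the 4 libraries and 8, 2, 2 and 13 in non-cycling cells. At 0 of 1315479 UMIs in cycling cells of control replicate 2, the count allows up to 2.28 CPM, which covers counting error only. This is above the highest Gli1 level of any of the 3 populations (1.67 CPM), so a Gli1 difference between these populations was not detectable in that library.

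The co-receptors did not move alike. Gas1 (ENSMUSG00000052957; chromosome 13, 60174405 to 60177365, minus strand), a membrane-anchored protein that binds Sonic hedgehog, stood at 213, 161, 204 and 224 CPM in cycling cells and at 161, 62.5, 162 and 194 CPM in non-cycling cells. It was higher in 4 of 4 libraries (log2 ratio 0.52, SE 0.10, adjusted p 0.000120), and thinning to 1000 UMIs left 0.37 and no call. Boc (ENSMUSG00000022687; chromosome 16, 44485049 to 44558897, minus strand) stood at 56.8, 59.3, 44.4 and 55.0 CPM against 53.7, 40.4, 40.3 and 44.2 CPM, higher in 4 of 4 libraries (log2 ratio 0.30, SE 0.07, adjusted p 0.00177). Cdon (ENSMUSG00000038119; chromosome 9, 35421128 to 35507652, plus strand) was higher in 2 libraries and lower in 2, at 5.32 to 9.08 CPM in cycling and 5.70 to 11.9 CPM in non-cycling cells. Its log2 ratio of 0.24 (SE 0.18, adjusted p 0.274) did not pass.

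Mycn (ENSMUSG00000037169; chromosome 12, 12936093 to 12941914, minus strand), the transcription factor that drives division downstream of the pathway, stood at 99.3, 48.7, 79.1 and 75.4 CPM in cycling cells and at 90.2, 51.2, 93.1 and 85.8 CPM in non-cycling cells. The log2 ratio of −0.03 (SE 0.07, adjusted p 0.757) did not pass. It depended on what counted as cycling. When at least 2 UMIs of 10 S phase genes also made a cell cycling, Mycn was called higher there (0.71), and in intact cells alone it was called lower (−0.18, adjusted p 0.0119).

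**Figure D2:**
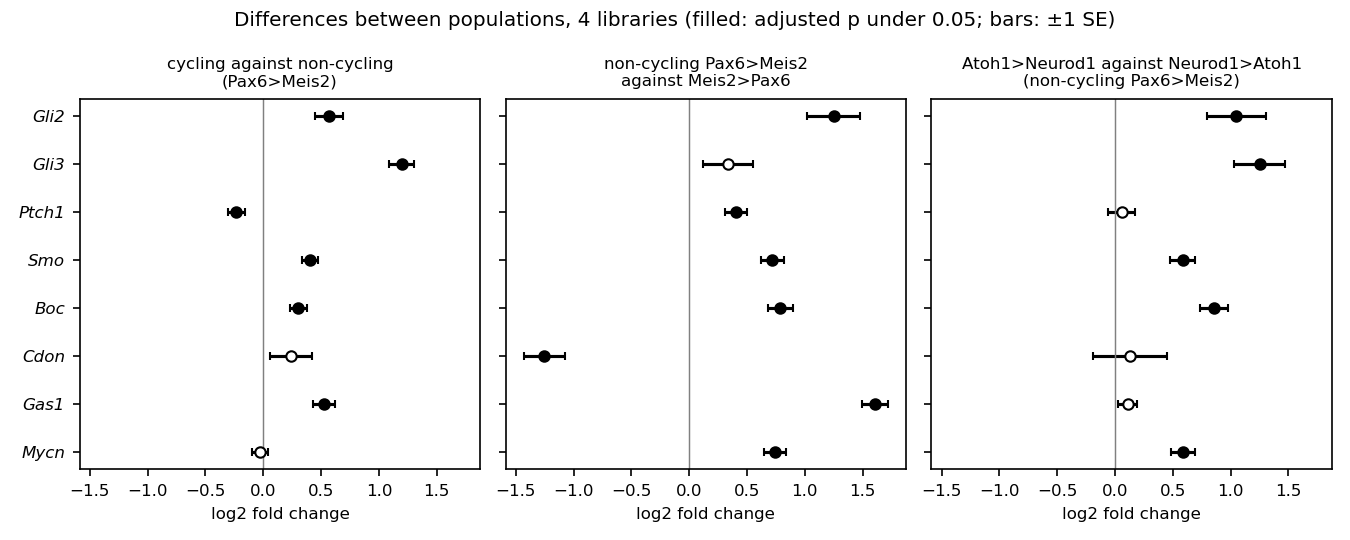
Log2 ratios of the 8 tested members in 3 comparisons between populations, with bars of 1 SE and filled points for an adjusted p under 0.05. Ptch1 is the only filled point to the left of 0 in the first panel, at −0.23, and Cdon the only one in the second, at −1.25.

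The non-cycling cells were therefore divided by their UMIs of the 10 S phase genes, as a description without a test. Ptch1 stood at 95.0, 77.7, 68.4 and 74.7 CPM in cells with under 2 of these UMIs and at 61.9, 64.9, 37.6 and 51.6 CPM in those with 2 or more. It was highest in the former in each library. Gli2 was lowest in the same cells, at 11.01, 2.62, 5.18 and 9.28 CPM against 14.9, 7.05, 10.9 and 18.4 CPM. Mycn showed the order of Gli2, at 73.6, 41.9, 48.7 and 49.4 CPM in cells with under 2 S phase UMIs and 98.8, 66.3, 104 and 94.5 CPM in those with 2 or more. Depth moved with this division, since cells with more UMIs more often reach 2: median UMIs per cell were 2235, 1963, 2221 and 1763 against 4053, 2816, 14018 and 11074. Its part in these levels was not tested.

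**Figure D3:**
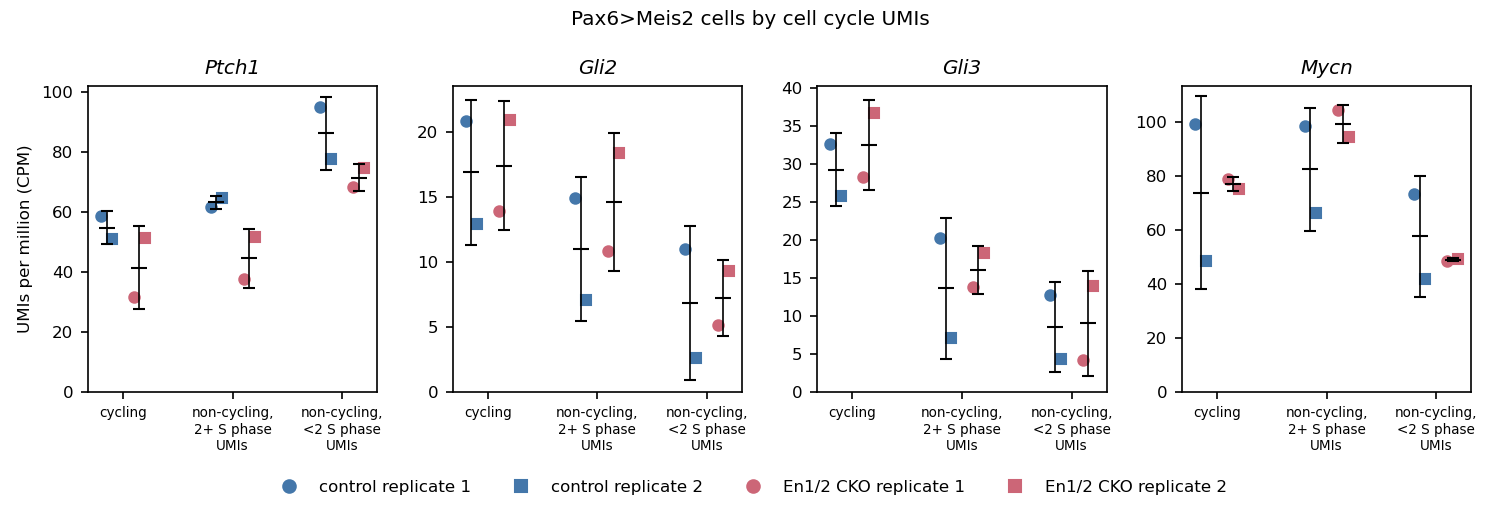
CPM (linear axis from 0) of Ptch1, Gli2, Gli3 and Mycn in cycling cells and in non-cycling cells with and without 2 S phase UMIs, 1 point per library with group mean and SD. Ptch1 is higher at each step to the right in each library, ending at 68.4 to 95.0 CPM, while Gli2 and Gli3 are highest in the cycling cells.

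Compared with Meis2 > Pax6 cells, non-cycling Pax6 > Meis2 cells carried more Gas1, Gli2, Boc, Mycn, Smo and Ptch1 RNA and less Cdon RNA. That is 6 members higher and 1 lower of 8 tested, against 19.0% and 17.3% of the 12163 genes tested. In sorted cells summed by population, fewer cells expressing a gene and less RNA per cell cannot be told apart. Gas1 stood at 53.9, 28.6, 51.1 and 60.1 CPM in Meis2 > Pax6 cells, below the non-cycling value of each library, for a log2 ratio of 1.61 (SE 0.11, adjusted p 4.15e-07). Gli2 was at 2.98 to 6.74 CPM there (1.25, SE 0.23, adjusted p 0.00112), on 11 to 18 UMIs per library. Boc was at 19.9 to 35.1 CPM (0.79, SE 0.11, adjusted p 9.63e-05), Mycn at 36.2 to 57.9 CPM (0.75, SE 0.10, adjusted p 6.93e-05) and Smo at 35.9 to 48.9 CPM (0.72, SE 0.10, adjusted p 0.000118). Each of these was lower in Meis2 > Pax6 cells in 4 of 4 libraries.

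Ptch1 had the smallest ratio of the 6 higher members, and Cdon was the lower one. Ptch1 stood at 61.0, 55.6, 30.6 and 48.9 CPM in Meis2 > Pax6 cells, close to its cycling values, and the log2 ratio was 0.41 (SE 0.09, adjusted p 0.00454). Cdon, the co-receptor related to Boc, stood at 14.8, 24.5, 17.9 and 20.8 CPM in Meis2 > Pax6 cells, above every value of the non-cycling cells (7.47, 11.9, 5.70 and 7.15 CPM). Its log2 ratio was −1.25 (SE 0.18, adjusted p 0.000157). Gli3 was not called (0.33, SE 0.22, adjusted p 0.256): it was higher in the non-cycling cells of 3 libraries and lower in those of CKO replicate 2. With S phase genes also defining cycling, the remaining non-cycling cells no longer differed by the test for Gli2 (0.52, adjusted p 0.321) and Mycn (0.09, adjusted p 0.746). With cells thinned to 1000 UMIs, Ptch1 (0.37) and Mycn (0.46) were not called.

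Within non-cycling Pax6 > Meis2 cells, those with more Atoh1 than Neurod1 UMIs were compared with those with more Neurod1, which marks granule cells that have begun to differentiate. Gli3, Gli2, Boc, Smo and Mycn were higher in the Atoh1 > Neurod1 cells, 5 of 8 members, where 20.0% of 10560 genes were called higher and 18.6% lower. Boc stood at 74.5, 81.3, 53.2 and 58.0 CPM against 42.5, 36.3, 31.5 and 32.2 CPM, with no overlap (log2 ratio 0.85, SE 0.12, adjusted p 3.63e-07). Mycn stood at 128, 110, 101 and 116 CPM against 72.2, 44.3, 89.6 and 77.3 CPM, also with no overlap (0.58, SE 0.10, adjusted p 1.71e-05). Smo was at 76.9 to 110 CPM against 40.7 to 68.3 CPM (0.59, SE 0.11, adjusted p 3.08e-05), and thinning to 1000 UMIs left 0.36 and no call (adjusted p 0.521). Gli3 (1.25, SE 0.22, adjusted p 1.29e-05) and Gli2 (1.05, SE 0.25, adjusted p 0.0010) rested on few UMIs in control replicate 2, where Gli3 had 0 against 4 and Gli2 4 against 0. Ptch1 (0.06, SE 0.12), Gas1 (0.11, SE 0.08) and Cdon (0.13, SE 0.32) did not pass, with adjusted p 0.736, 0.315 and 0.787. The Atoh1 > Neurod1 cells numbered 145, 39, 121 and 315, and their S phase markers stood at 841 to 1128 CPM against 331 to 469 CPM in the Neurod1 > Atoh1 cells, a difference whose part was not tested.

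The other genes of the pathway were read from 4 lists with 53 genes. Between cycling and non-cycling cells, 45 were tested, with 12 higher and 16 lower, where 26.3% of all genes tested were higher and 26.2% lower. The higher count is at the background share. Of the 14 tested target genes reported in granule cell precursors, 10 were higher and 2 lower, with a median log2 ratio of 0.36 beside −0.01 for all genes. The higher ones included the cell cycle genes Foxm1 (4.34), Ccne1 (2.11) and Ccnd1 (0.78), the last at 118 to 238 CPM in cycling and 50.1 to 167 CPM in non-cycling cells. The 2 lower were Sfrp1, a secreted Wnt inhibitor (−0.78), and Hsd11b2, an enzyme that inactivates glucocorticoids (−0.25). The count of higher targets includes cell cycle genes. Such genes define the cycling cells, so part of that count was fixed in advance. Of the 13 tested genes listed as inhibitors and negative regulators, 7 were lower and 1, Spop, was higher (0.35). The lower ones included the ciliary receptor Gpr161 (−0.64) and the Gli-binding protein Sufu (−0.28). Grk3, a receptor kinase, had the largest of these differences (−0.98). Its relative Grk2 stood in the ciliary and transduction list. Whether each gene of the inhibitor list, such as Grk3 or the also lower Prkar1a, acts as an inhibitor was not tested. Of the 12 tested ciliary and transduction genes, 1 was higher, the glypican Gpc3 (1.79), and 4 were lower, among them the motor subunit Kif3a (−0.62). Of the 6 tested ligand and release genes, 3 were lower, Disp2 (−1.24), Scube3 (−0.81) and Scube1 (−0.54). Shh itself had 14 UMIs in all kept cells and the inhibitor Hhip had 4.

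The same lists differed elsewhere. Against Meis2 > Pax6 cells, 16 of 45 were higher in non-cycling cells and 9 lower, beside 19.0% and 17.3% of all genes tested, with Sfrp1 (2.42) and Ccnd2 (1.83) the largest among the higher target genes. The cilium genes Evc (1.64) and Evc2 (1.51) were higher and Ift88 (−1.21) lower. Between Atoh1 > Neurod1 and Neurod1 > Atoh1 cells, 12 of 43 were higher and 11 lower, beside 20.0% and 18.6% of all genes tested. Among them, 9 of 13 targets were higher and 7 of 13 genes of the inhibitor list lower. Atoh1 is 1 of those 9 targets and defines the cells, so its value there is no finding. Sfrp1 was lower in the Atoh1 > Neurod1 cells (−2.01).

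**Figure D4:**
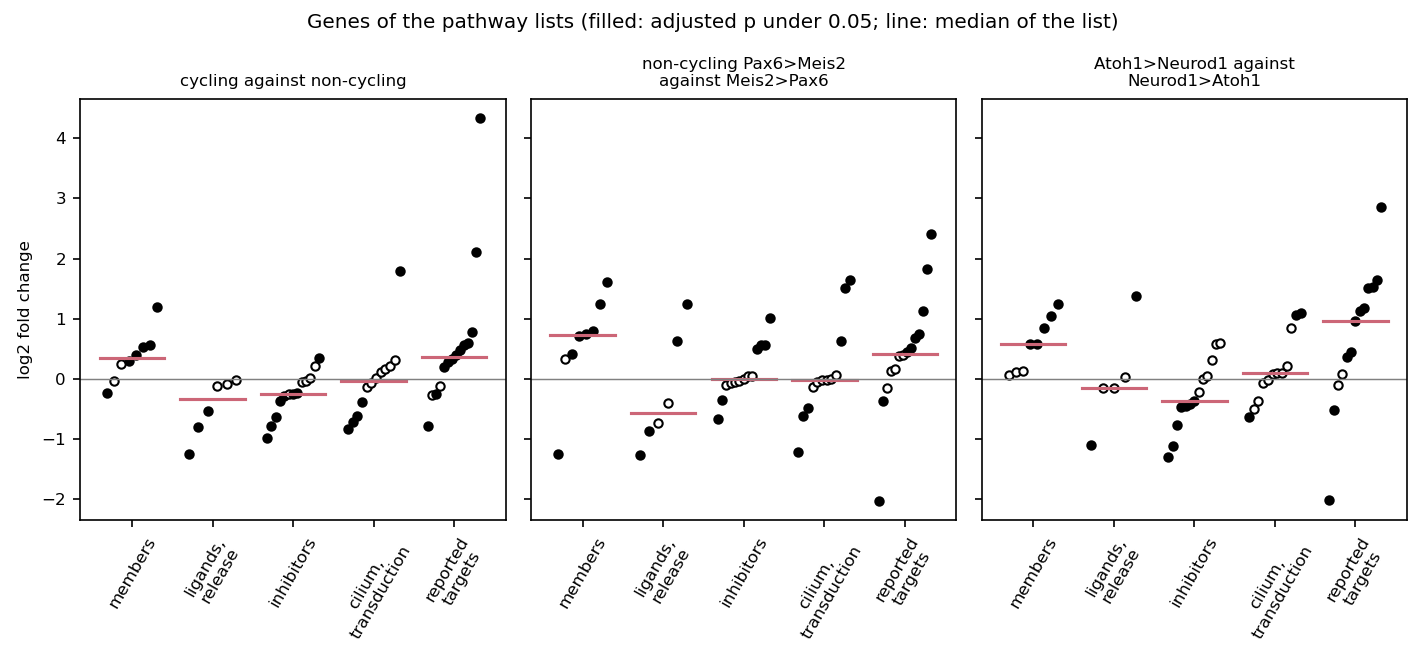
Log2 ratios of the tested genes of the members and of 4 other pathway lists in 3 comparisons, 1 point per gene, filled for an adjusted p under 0.05, with a line at the list's median. In the first panel 10 of 14 target genes are filled above 0 and 7 of 13 genes of the inhibitor list are filled below 0. The targets include cell cycle genes, and such genes define the cycling cells.

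The members were then compared between En1/2 CKO and control libraries in each population. No member was called. In cycling cells the background was 1 of 13052 genes, En2 (0.00766%), in non-cycling cells 6 of 12236 (0.049%) and in Meis2 > Pax6 cells 25 of 11804 (0.212%). At an unadjusted p under 0.05 there were 684, 1586 and 1732 genes, of which 0, 1 and 3 were members. DESeq2 called 20, 101 and 174 genes, none of them members. Leaving out 1 library at a time, the counts over all genes were 3 to 160, 11 to 356 and 44 to 751, highest without CKO replicate 2, control replicate 1 and CKO replicate 2. Of the 53 other pathway genes, none was called in any of the 3 populations, with 8 of 45, 9 of 45 and 10 of 43 at an unadjusted p under 0.05.

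Ptch1 was the only 1 of the 9 members that lay below both controls in both CKO libraries in 2 of the populations. In non-cycling cells the control mean was 72.9 ± 0.25 CPM and the CKO mean 49.99 ± 8.63 CPM (SD over 2 libraries, n = 2 each), a log2 ratio of −0.40 (SE 0.20, adjusted p 0.428). With each cell thinned to 1000 UMIs, the ratio was 0.015 in non-cycling, −0.084 in cycling and −0.11 in Meis2 > Pax6 cells. In Meis2 > Pax6 cells it stood at 58.3 ± 3.85 and 39.7 ± 13.0 CPM (−0.55, SE 0.24, adjusted p 0.328), and without CKO replicate 2 it was −0.84 and called (adjusted p 0.0447). In cycling cells CKO replicate 2 lay between the controls (−0.31, SE 0.25, adjusted p 0.905), and without CKO replicate 1 the value was −0.01.

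Gli3 in Meis2 > Pax6 cells had the largest difference of any member, with 8.14 and 3.81 CPM in control and 11.8 and 20.2 CPM in CKO replicates, on 16, 23, 52 and 36 UMIs. The groups did not overlap. The log2 ratio was 1.55 (SE 0.44, adjusted p 0.169). It was called without control replicate 1 (2.01, adjusted p 0.00950) and without the low-count filter (1.55, adjusted p 0.00512), and with crossed replicate numbers as a block, an alternative chosen after seeing the data. It was 1.01 without control replicate 2, with an adjusted p of 0.653. Granule lineage markers in this population stood at 2301 and 2089 CPM in control and 3051 and 3419 CPM in CKO replicates. Progenitor and glia markers stood at 283 and 82.2 against 184 and 315 CPM. The part of the granule markers in the Gli3 difference was not tested.

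Gas1 in non-cycling cells stood at 161 and 62.5 CPM in control and 162 and 194 CPM in CKO replicates. The first control was level with the first CKO library and control replicate 2 was far below. The log2 ratio was 0.79 (SE 0.35, adjusted p 0.377). It was 1.64 and called without control replicate 1 (adjusted p 0.00555) but 0.30 without control replicate 2 (adjusted p 0.953), and 0.81 and called without the low-count filter (adjusted p 0.0342). It was also called with the crossed block. In Meis2 > Pax6 cells Gas1 was 0.52 (SE 0.27, adjusted p 0.419), and −0.41 once cells with progenitor and glia markers were left out. Mycn was 0.11, 0.45 and 0.49 in the 3 populations, with adjusted p 0.969, 0.469 and 0.326. The remaining members, Gli2, Smo, Boc and Cdon, had log2 ratios between −0.35 and 0.58, with SEs of 0.20 to 0.54.

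**Figure D5:**
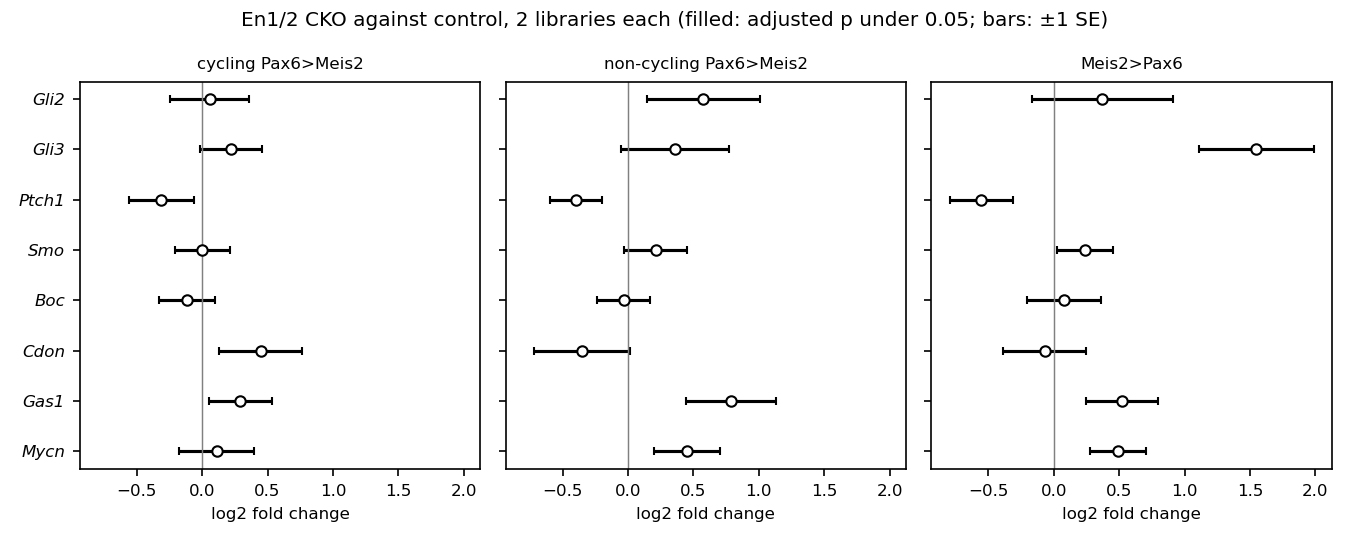
Log2 ratios of En1/2 CKO against control for the 8 tested members in the 3 populations, with bars of 1 SE. All points are open, which marks an adjusted p of 0.05 or more, with Gli3 in Meis2 > Pax6 cells farthest from 0 at 1.55.

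Whether the CKO effect differed between cycling and non-cycling cells was tested by an interaction term, which called 30 of 12989 genes (0.231%) and none of the 8 members. On simulated counts this fit called 14 of 100 genes changed 2-fold and 92 of 100 changed 4-fold, so a missing call says little of 2-fold differences. Gas1 (−0.37, p 0.0111, adjusted p 0.360) and Mycn (−0.32, p 0.0137, adjusted p 0.393, both by edgeR) had the lowest p of the members. Leaving out 1 library at a time, the Gas1 term ranged from −1.08 to −0.19. The former was without control replicate 1, a fit with control replicate 2 as the only control. With S phase genes also defining cycling the Gas1 and Mycn terms were 0.29 and 0.42, of the opposite sign. The share of cycling cells among Pax6 > Meis2 cells was compared as well, since the call reads UMIs and depth differed. With each cell thinned to 2000 UMIs, which left out 940 and 1786 control cells and 422 and 1099 CKO cells, the control mean was 29.0 ± 3.58% and the CKO mean 35.8 ± 5.49% (SD, n = 2 each). The exact permutation test gave p 0.333, the smallest that 2 against 2 libraries allow (two-sided). Unthinned, the shares were 34.01 ± 2.63% and 48.1 ± 7.87%.

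Over the 12 sums of 4 libraries by 3 populations, the genes whose log2(CPM + 1) was most like that of Ptch1 among 9205 genes with a mean of at least 10 CPM were Rorb, Fnbp1, Cyth3, Supt20 and Itch, with Pearson r from 0.88 to 0.90. For Mycn they were Unc119b, Spr, Prmt3, Rangrf and Gm38534, with r from 0.95 to 0.97. For Gli1 they were Wdr73, Tbrg4, Lifr, Timp3 and Pdk2 (r from 0.87 to 0.92), a ranking that rests on 0 to 14 Gli1 UMIs per sum. Among the members themselves Smo and Gas1 were most alike (r 0.98), and r was 0.96 for both Gli2 with Smo and Gli2 with Gas1. Cdon ran against the other co-receptors, with r −0.88 to Boc and −0.83 to Gas1. Ptch1 had an r of 0.14 with Smo and 0.05 with Mycn. These values describe 12 sums that share 4 libraries and their depth, and they carry no test.

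Haemoglobin-high cells, those with 10% or more of their UMIs from haemoglobin genes, should lack the members. They numbered 3, 11 and 3 in control replicates 1 and 2 and CKO replicate 1. Gas1 had 1, 1 and 0 UMIs there, Mycn 1, 0 and 0 and Smo 0, 0 and 1, and the other 6 members had 0. These cells held 129157 UMIs in all, so a 0 says little for the rarer members. Several members overlap other annotated genes, among them Gli1 with Arhgap9 and Gas1 with Gm48488 on the opposite strand, Ptch1 with A930032L01Rik and Smo with Gm13717 on the same strand. How the counting treated strand is not given in the sources used here, so UMIs of these pairs may not be fully separated.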

How the data were processed

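Droplet libraries were made with 10x Genomics 3′ chemistry from sorted tdTomato positive cells, 2 control and 2 En1/2 CKO libraries. The deposited matrices hold raw UMI counts per gene and cell barcode, made by the authors with Cell Ranger 5.0.0 per the file headers and the build mm10 per the submitters' processing notes; the annotation is not given in the sources used here. Groups and replicate numbers come from the labels.

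Barcodes of 500 genes and 1000 UMIs or more with mitochondrial UMIs of 10% or less were kept as cells, and UMIs were summed per library and population. Populations were compared with the library as a block, and genotypes across the 2 libraries of each group, by edgeR 4.0.16 (TMM scaling, filterByExpr, quasi-likelihood F test, SE as the absolute log2 ratio over the root of F) in R 4.3.3, with Benjamini-Hochberg adjustment over all genes tested. Other values were computed with Python 3.11.15, pandas 2.3.3 and scipy 1.17.1. The fits were tested on simulated counts with known changes, the same dispersion for all genes and no library effect. Of 100 genes changed 2-fold, 72, 77 and 71 were called for the CKO effect in cycling, non-cycling and Meis2 > Pax6 cells. The 3 comparisons between populations called 93, 91 and 87, and the interaction 14. Floors for a count of 0 use 3 UMIs and cover counting error only. Promoter windows are from RefSeq (GRCm38.p6) and positions from GENCODE M21 (GRCm38), which held 32158 of the 32285 gene IDs.

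Named genes are the 9 members, the called genes of the pathway lists and the 5 genes most like Gli1, Ptch1 and Mycn. The members and lists were chosen with earlier results of these data known, and the division by S phase UMIs, the choice of printed promoters and the E2F and GC box motifs were added after values had been seen. Alternatives were DESeq2 1.42.0, no filter, a replicate block, each library left out, thinning, intact cells, doublets removed, other definitions of cycling and of the Pax6 and Meis2 groups, and cells with progenitor, glia or haemoglobin markers left out. Thinned cells were placed in populations anew from their thinned counts. Libraries were not paired by number, since same-numbered libraries did not deviate together.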

Additional observations from a re-analysis of the deposited data

Results flagged for a closer look

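Among non-cycling cells, Gli1 stood at 0.42 and 1.07 CPM in the 2 CKO and at 1.57 and 1.08 CPM in the 2 control libraries. These values rest on 25 UMIs over the 4 libraries, and 1.07 and 1.08 CPM were level. Among Meis2 > Pax6 cells Gli1 was higher in both CKO libraries, where the mean was 0.39 CPM and the controls had 0 UMIs. This rests on 0, 0, 1 and 1 UMIs, and the difference between the populations was not tested.

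Cells with equal Pax6 and Meis2 UMIs (507 and 648 in control, 226 and 347 in CKO replicates) belong to none of the populations above. There, the CKO libraries lay above both controls for 3 members. Gli3 had a CKO mean of 28.1 CPM against 23.0 and 7.13 CPM in the controls, where CKO replicate 1 stood at 23.1 CPM. Smo had a mean of 96.1 CPM against 69.9 and 57.0 CPM. Gas1 had a mean of 114 CPM against 88.8 and 52.0 CPM. These cells also held erythroid markers at 13347 and 5794 CPM in control and 11206 and 15.4 CPM in CKO replicates. The part of these markers in the 3 values was not tested, and the differences themselves were not tested.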

How the results depend on the processing

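With 2 libraries a group, and deeper CKO than control cells, the counts of called genes for the CKO effect moved most. The replicate block was fitted although no pairing is given. Deviations of same-numbered libraries from their group means correlated at −0.090, −0.24 and −0.21 in cycling, non-cycling and Meis2 > Pax6 cells. The block moved Cdon in Meis2 > Pax6 cells to 0.042. It called 0, 0 and 58 genes in these 3 populations against 1, 6 and 25. The crossed pairing, added after seeing the data, called 482 and 763 in the last 2, with Gas1 among the former and Gli3 among the latter as the only members. DESeq2 called 20, 101 and 174, and no filter 109, 407 and 559. In cycling cells thinning called 7, S phase genes 6 and a margin of 2 UMIs 3. In non-cycling cells intact cells, doublets removed, the margin and no cells of 1% or more haemoglobin UMIs each called 3. In Meis2 > Pax6 cells thinning called 1, intact cells 42, doublets removed 9 and the margin 72. Leaving out 1 library called 3 to 160, 11 to 356 and 44 to 751. The comparison of cycling with non-cycling cells called 1445 thinned and 3628 without glia-marker cells, against 6492. That of non-cycling with Meis2 > Pax6 cells called 1473 thinned, 2735 intact and 1779 with S phase genes, against 4417. That of Atoh1 > Neurod1 with Neurod1 > Atoh1 cells called 2478 by DESeq2, 345 thinned and 2259 without glia-marker cells, against 4070. The interaction called 66 unfiltered, 5 thinned, 14 with S phase genes, 9 with the margin, 18 without glia-marker cells and 30 to 86 without 1 library, against 30. The cause of these moves was not tested.

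Member values of the other sign, most of them near 0, were as follows. For the CKO effect in cycling cells, Gli2 was −0.049 intact, −0.000291 with the margin and −0.014 without glia-marker cells. Smo was −0.00316 thinned, −0.21 without glia-marker cells and −0.000583 without cells of 1% or more haemoglobin UMIs. Gas1 was −0.16 thinned and Mycn −0.095 intact. In non-cycling cells thinning gave Gli2 −0.25, Gli3 −0.38 and Ptch1 0.015, and S phase genes gave Boc 0.00414 and Mycn −0.23. In Meis2 > Pax6 cells Boc was −0.73 thinned, −0.024 with doublets removed and −0.23 without glia-marker cells, Cdon 0.78, 0.10 and 0.40, and Gas1 −0.41 without glia-marker cells. Between cycling and non-cycling cells Cdon was −0.081 with S phase genes and −0.067 without glia-marker cells, and Mycn 0.10 thinned, 0.71 with S phase genes and 0.078 without glia-marker cells. Between non-cycling and Meis2 > Pax6 cells Gli3 was −0.018 intact and −0.27 with S phase genes. Between Atoh1 > Neurod1 and Neurod1 > Atoh1 cells Ptch1 was −0.061 with the margin. In the interaction, thinning gave Gli2 0.70 and Ptch1 −0.11, S phase genes gave Gli2 0.19, Ptch1 −0.052, Boc −0.085, Gas1 0.29 and Mycn 0.42, and Smo was 0.087 intact and Boc −0.21 without glia-marker cells.

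Leaving out each library in turn, the CKO effect in cycling cells ranged from −0.26 to 0.027 for Boc, −0.25 to 0.56 for Gli2, −0.27 to 0.80 for Mycn and −0.036 to 0.056 for Smo. In non-cycling cells it ranged from −0.18 to 0.20 for Boc, −0.083 to 1.60 for Gli3 and −0.051 to 0.62 for Smo. In Meis2 > Pax6 cells it ranged from −0.28 to 0.44 for Boc, −0.35 to 0.47 for Cdon and −0.066 to 0.77 for Gli2. The interaction ranged from −0.28 to 0.11 for Boc, −1.11 to 0.19 for Gli3, −0.083 to 0.29 for Ptch1 and −0.56 to 0.033 for Smo. Mycn between cycling and non-cycling cells ranged from −0.13 to 0.030. Between Atoh1 > Neurod1 and Neurod1 > Atoh1 cells Cdon ranged from −0.16 to 0.30 and Ptch1 from −0.00482 to 0.055. The difference in cycling share was 6.85 percentage points at 2000 UMIs a cell, 5.07 at 1000, 14.1 unthinned and 6.12 with S phase genes.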
